A study of Mus musculus with 6 samples.

Results

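Among the 6 RNA sequencing libraries of mouse inguinal fat, 3 held abundant transcripts of B cells, T cells and lymphoid stroma and 3 held far fewer. The libraries were chosen by the measured level of Cd79b, a signalling chain of the B cell receptor: those with at least 100 TPM were called lymphocyte-rich (HFD replicate 3, HEP replicates 1 and 3) and those below 10 TPM lymphocyte-poor (HFD replicates 1 and 2, HEP replicate 2). The rich library nearest to the threshold had 149 TPM, and the poor library nearest to it had 2.95 TPM. TPM is a gene's share of a library's transcripts, corrected for gene length and scaled to a total of 1000000. Throughout, the values of poor libraries are given in the order HFD replicate 1, HFD replicate 2, HEP replicate 2, and those of rich libraries in the order HFD replicate 3, HEP replicate 1, HEP replicate 3.

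The tissue was inguinal white fat, a subcutaneous depot, from wild-type male mice fed for 12 weeks a high-fat diet alone (HFD, 3 libraries) or a high-fat diet with 0.5% hesperidin, a flavonoid glycoside of citrus (HEP, 3 libraries). Each class therefore mixed the diets, with 1 HFD and 2 HEP libraries among the rich, and the diets themselves are not compared here. All libraries carried the same batch label, and the labels did not say whether each came from a separate animal or how the fat was dissected. TPM keeps no read depth, so depth per library was unknown and no counting interval could be given; between 22599 and 25271 genes per library had a value above 0.

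The mouse inguinal fat pad surrounds a lymph node, an organ in which recirculating naive lymphocytes meet antigen. B cells gather there in follicles around follicular dendritic cells, which secrete CXCL13, and T cells gather around fibroblastic reticular cells, which secrete CCL19 and CCL21. Lymphocytes enter through high endothelial venules, whose sulphated glycoproteins capture them from the blood, and macrophages line the sinuses through which lymph flows.

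To show the start regions of genes that set the classes apart, the 250 bases before the annotated start were taken from RefSeq (mouse build GRCm38.p6) for Ccl21a, Glycam1 and Cd79a, the 3 genes with the widest separation, and for Cd22, Ltb and Blnk, which were chosen because a motif searched for was found there. Capitals mark the motif. The motifs were the palindrome of EBF, a B lineage factor (TCCC and GGGA separated by 2 unspecified bases), the octamer bound by OCT factors (ATTTGCAT), and the NF-kB consensus, each searched on both strands.
Ccl21a (chr4:42773992-42774241, minus strand): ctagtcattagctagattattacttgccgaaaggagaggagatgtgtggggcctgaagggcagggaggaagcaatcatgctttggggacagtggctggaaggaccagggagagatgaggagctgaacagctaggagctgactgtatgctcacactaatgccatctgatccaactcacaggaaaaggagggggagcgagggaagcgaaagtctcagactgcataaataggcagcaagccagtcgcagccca
Glycam1 (chr15:103565082-103565331, minus strand): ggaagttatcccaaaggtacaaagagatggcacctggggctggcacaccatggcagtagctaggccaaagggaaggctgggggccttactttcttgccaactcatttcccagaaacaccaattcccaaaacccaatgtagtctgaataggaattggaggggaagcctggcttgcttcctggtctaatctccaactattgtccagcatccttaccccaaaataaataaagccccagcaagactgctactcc
Cd79a (chr7:24897247-24897496, plus strand): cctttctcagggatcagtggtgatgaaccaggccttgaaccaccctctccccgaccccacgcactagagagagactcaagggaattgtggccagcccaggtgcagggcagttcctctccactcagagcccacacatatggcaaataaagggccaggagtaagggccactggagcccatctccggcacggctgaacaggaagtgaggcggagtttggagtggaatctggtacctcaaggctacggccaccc
Cd22 (chr7:30879029-30879278, minus strand): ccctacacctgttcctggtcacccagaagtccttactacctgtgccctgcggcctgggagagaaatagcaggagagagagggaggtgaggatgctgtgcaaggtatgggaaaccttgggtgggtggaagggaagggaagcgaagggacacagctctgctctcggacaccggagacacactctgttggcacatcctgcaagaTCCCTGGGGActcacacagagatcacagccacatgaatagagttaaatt
Ltb (chr17:35194257-35194506, plus strand): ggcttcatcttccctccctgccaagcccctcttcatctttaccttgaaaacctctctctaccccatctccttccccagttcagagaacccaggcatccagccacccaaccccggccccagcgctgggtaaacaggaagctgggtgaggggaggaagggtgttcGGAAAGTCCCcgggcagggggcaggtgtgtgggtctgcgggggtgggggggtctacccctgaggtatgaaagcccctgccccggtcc
Blnk (chr19:40994222-40994471, minus strand): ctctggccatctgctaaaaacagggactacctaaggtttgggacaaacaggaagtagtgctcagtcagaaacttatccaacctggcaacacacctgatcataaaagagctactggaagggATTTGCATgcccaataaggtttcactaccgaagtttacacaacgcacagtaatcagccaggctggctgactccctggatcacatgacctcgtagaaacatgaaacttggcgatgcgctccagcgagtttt

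In Cd22 the capitals are the EBF palindrome, which ended 39 bases before the start. Ltb held the NF-kB consensus 77 bases before it, and Blnk held the octamer 122 bases before it. The upstream regions of Ccl21a, Glycam1 and Cd79a held no match in this window. Over the 27025 genes of the promoter table, 0.914% had the EBF palindrome, 1.81% the octamer and 0.159% the NF-kB consensus in at least 1 upstream region. Among protein-coding genes that were higher in the rich libraries by the rule given next, 17 of the 966 with a promoter entry held the EBF palindrome (1.76%), 32 the octamer (3.31%) and 6 the NF-kB consensus (0.621%). The same shares over protein-coding genes at a mean of at least 1 TPM were 1.13%, 1.57% and 0.206% of 10212 genes. Of the genes lower in the rich libraries, of any type, 97 had a promoter entry. The octamer was held by 3 of these (3.09%), a share near that of the higher genes, and the other motifs by 0. A match of letters is a description and was not tested as a binding site.

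Of 57180 genes in the table, 15446 averaged 1 TPM or more across the 6 libraries and were kept, 13000 of them protein-coding. A gene was counted as higher (or lower) in the rich libraries when its 3 rich values lay above (or below) all 3 poor values and the means of log2(TPM + 1) differed by at least 1, a 2-fold difference. By this rule 1763 genes were higher, 11.4% of those kept, and 136 were lower, 0.88%. Without the 2-fold condition, 4704 genes (30.5%) lay entirely higher and 2109 (13.7%) entirely lower. The split was made on Cd79b in these same libraries, and every gene of the contrast belongs with it, so these counts and all differences given here are a description, no test was run, and no p-value is given. The median difference over all kept genes was 0.11 on the log2 scale. That scale, log2(TPM + 1), understates differences of genes with low values.

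Among the higher genes, 724 differed at least 4-fold and 146 at least 16-fold, and among the lower genes 16 and 0 did. Immunoglobulin genes made up 155 of the higher genes and T cell receptor genes 71. For 722 of the 1763 the poor libraries averaged under 1 TPM, so these genes passed the filter on level through the rich libraries and had to be higher there; 160 of them were listed at 0 in all 3 poor libraries. For 39 of the 136 lower genes the rich libraries averaged under 1 TPM. These passed the filter on level through the poor libraries and had to be lower in the rich. Genes of the lists described below accounted for 173 of the higher genes (9.81%) and 15 of the lower ones.

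**Figure D1:**
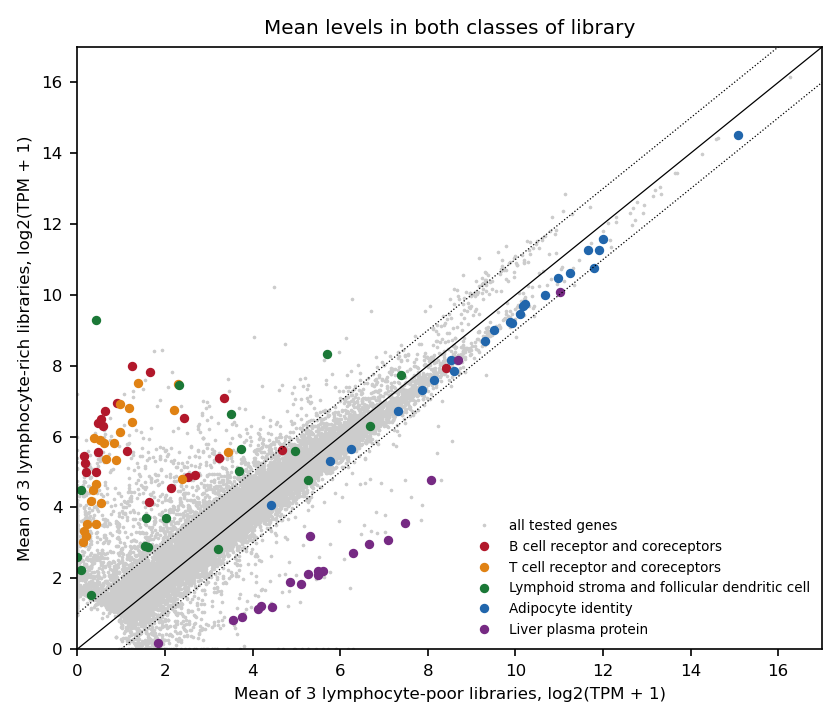
Mean log2(TPM + 1) of each kept gene in the 3 lymphocyte-poor libraries (horizontal axis) and the 3 lymphocyte-rich libraries (vertical axis), with members of 5 gene lists in colour. The solid line marks equal means and the dotted lines a 2-fold difference: B and T cell receptor genes lie far above the lines, adipocyte identity genes slightly below the solid line and most liver genes far below it.

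The 5 markers of the classes were high in the same 3 libraries. Pax5, the transcription factor that holds B cell identity, was at 0.55, 0.23 and 0.75 TPM in the poor libraries and at 28.1, 55.0 and 62.9 TPM in the rich ones. Cd3e, a signalling chain of the T cell receptor complex, was at 0.77, 2.05 and 0.43 TPM against 52.8, 78.5 and 80.7 TPM. Ccl21a, a chemokine of the T cell zone, was at 0.87, 0.28 and 0 TPM against 519, 695 and 670 TPM, and its gap between the lowest rich and the highest poor value, 8.12 on the log2 scale, was the widest of all kept genes. In each of the 3 the classes were far apart, and HFD replicate 3 was the lowest of the rich libraries. Ccl19, which binds the same receptor as CCL21, stood at 2.95, 5.35 and 3.87 TPM in the poor libraries and at 198, 168 and 163 TPM in the rich, where HFD replicate 3 was the highest. Ccl21a has near-identical copies in the mouse genome, among which the authors' estimate may have divided reads. Its copy Ccl21b was listed at 0.22, 0 and 0 TPM against 21.1, 20.8 and 22.1 TPM.

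**Figure D2:**
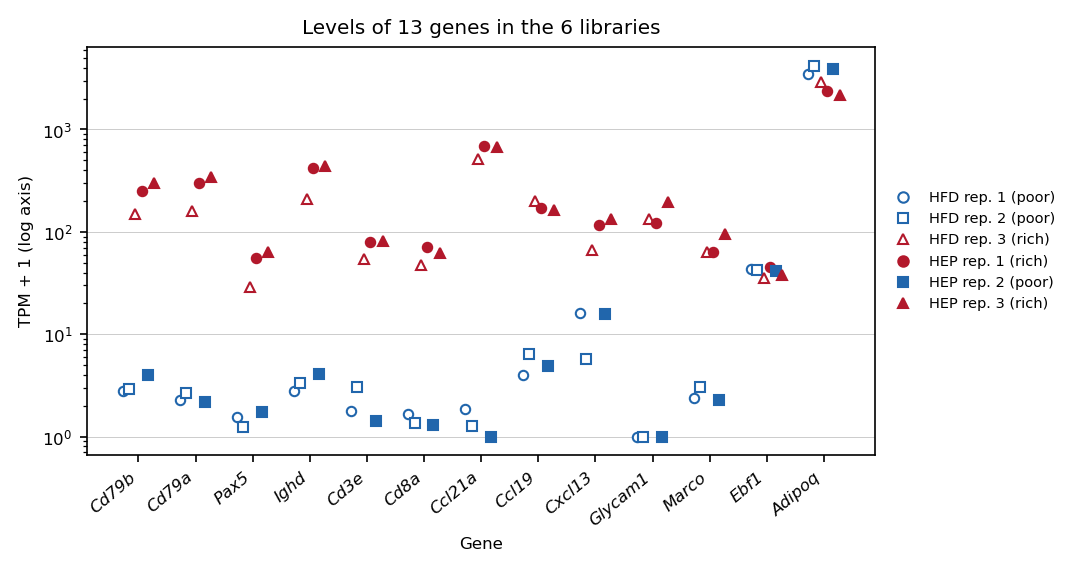
TPM + 1 on a log axis of 13 genes (horizontal axis) in the 6 libraries, red for lymphocyte-rich and blue for lymphocyte-poor, open for HFD and filled for HEP, with the symbol giving the replicate. The first 11 genes separate the classes, Ebf1 overlaps between 34.4 and 44.0 TPM, and Adipoq is lower in the 3 rich libraries.

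Genes of the B cell receptor and its coreceptors, a list that includes Cd79b itself, were far higher in the rich libraries. Its 22 genes were kept in full, 10 of them with a poor mean under 1 TPM, and 21 lay entirely higher, with a median difference of 4.69. Cd79a, the partner chain of CD79B, was at 1.30, 1.64 and 1.16 TPM against 159, 299 and 339 TPM (1.37 ± 0.25 against 266 ± 94.4, mean ± SD, n = 3 libraries each). Ms4a1, which encodes CD20, was at 0.49, 0.42 and 0.43 TPM against 52.1, 112 and 119 TPM. On the log2 scale the gap between the classes was wider than the range within either class for both genes. Cr2, the complement receptor of mature B cells and follicular dendritic cells, went from at most 0.16 TPM in the poor libraries to 22.8, 54.9 and 60.4 TPM in the rich, and Fcer2a, the low-affinity IgE receptor of mature B cells, from at most 0.62 TPM to 47.7, 103 and 112 TPM. Cd22, an inhibitory coreceptor, was at 0.83, 1.56 and 0.40 TPM against 65.8, 167 and 169 TPM.

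Members that other haematopoietic cells also use differed less. Lyn, a kinase of B cells and myeloid cells, had 21.2, 30.6 and 23.1 TPM in the poor libraries and 39.1, 53.2 and 52.8 TPM in the rich, a difference of 0.93. Blnk, the adaptor of B cell receptor signalling whose upstream region holds the octamer, had 3.26, 10.1 and 4.52 TPM against 19.9, 34.1 and 36.9 TPM. Cd81, a tetraspanin that most tissues express, was the exception of the list: it was at 294, 371 and 357 TPM in the poor libraries and at 269, 245 and 221 TPM in the rich, a difference of -0.47 that became 0.10 when libraries were scaled to their adipocyte identity genes.

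The B cell transcription factors had a median difference of 2.80, with 12 of 14 genes entirely higher and 7 of the 14 below a mean of 1 TPM in the poor libraries. Irf8, a factor of B cells and dendritic cells, was at 4.72, 10.3 and 6.49 TPM against 39.7, 64.0 and 62.1 TPM. Mef2c, which muscle and endothelium also express, was at 12.2, 15.8 and 20.9 TPM against 30.6, 50.6 and 59.9 TPM. Ebf1, a factor of both B cells and adipocytes, did not separate the classes: it had 42.2, 41.2 and 40.3 TPM in the poor and 34.4, 44.0 and 36.6 TPM in the rich libraries, a difference of -0.11. Foxo1, which fat expresses too, also overlapped, with 14.3, 20.5 and 14.5 TPM against 20.4, 27.0 and 23.9 TPM.

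Immunoglobulin transcripts took 0.0309%, 0.0372% and 0.0297% of the TPM in the poor libraries and 0.381%, 0.570% and 0.683% in the rich. Among the constant genes, 11 of 12 listed were kept and all 11 lay entirely higher, with a median difference of 3.23. The poor mean was under 1 TPM for 5 of the 11. Ighd, the IgD heavy chain of naive B cells, was at 1.8, 2.31 and 3.11 TPM against 210, 419 and 439 TPM. Igkc, the kappa light chain, was at 32.5, 12.9 and 23.6 TPM against 958, 1288 and 1421 TPM. Ighm, the IgM heavy chain, already had 235, 323 and 194 TPM in the poor libraries, against 648, 747 and 840 TPM in the rich, so its difference of 1.59 was far below that of Ighd (6.66). In the poor libraries the level of Ighm exceeded that of Igkc, and in the rich it lay below it.

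The switched isotypes were low and uneven among the rich libraries. Ighg1 was listed at 0 in the 3 poor libraries and at 2.67, 1.99 and 27.3 TPM in the rich, so that HEP replicate 3 stood apart. Ighg3 was highest in HFD replicate 3, with 17.6 TPM against 5.38 and 8.08 TPM in HEP replicates 1 and 3, and with at most 0.14 TPM in the poor libraries. Igha, the IgA heavy chain, had 5.08, 2.60 and 3.41 TPM against 5.98, 5.82 and 7.39 TPM, the smallest difference of the constant genes at 0.68. Constant genes of the IgG subclasses are similar in sequence, and so are the lambda genes Iglc1 to Iglc3, so the division of reads between them is uncertain. Igkc overlaps the predicted gene Gm30211, which reached 13.95 TPM.

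Variable segments were seen in far larger number in the rich libraries. Of 218 immunoglobulin variable segments in the table, 28, 26 and 42 were above 0 TPM in the poor libraries and 167, 176 and 185 in the rich. After the filter on level, 144 remained and 143 of them were higher. T cell receptor variable segments followed the same order, with 5, 15 and 12 of 144 above 0 in the poor libraries and 118, 117 and 126 in the rich, and 64 of the 66 kept were higher. Most segments of either kind were at 0 in each poor library. Those kept therefore passed the filter mostly through the rich libraries, and such segments had to be higher there.

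Germinal centre and plasma cell genes separated the classes less fully than the genes of resting B cells. Of the 14 germinal centre genes 7 were kept, 3 of them with a poor mean under 1 TPM. Entirely higher were 5 of the 7, with a median difference of 0.87. Bcl6, the factor of germinal centre B cells and follicular helper T cells, was at 9.71, 9.18 and 11.1 TPM against 12.9, 19.1 and 24.7 TPM. Il21r, the interleukin-21 receptor, had at most 0.22 TPM in the poor libraries and 25.6, 45.3 and 41.6 TPM in the rich. Gna13, Gcsam and Cxcr5 also lay entirely higher, and S1pr2 and Fas overlapped between the classes. The plasma cell list had a median of 0.23, with 5 of 12 genes entirely higher and 1 entirely lower. Over all kept genes 30.5% lay entirely higher, and 4 of the 12 had a poor mean under 1 TPM. Jchain, the joining chain of secreted IgM and IgA, was at 2.72, 2.25 and 2.29 TPM against 46.6, 38.2 and 32.3 TPM, highest in HFD replicate 3. Xbp1, the secretory factor that adipocytes and other cells also express, was the lower one, with 126, 132 and 150 TPM against 101, 126 and 77.8 TPM, a difference of -0.44 that became 0.13 under adipocyte identity scaling. Tnfrsf17, the BCMA receptor of plasma cells, overlapped (1.12, 0.83 and 2.22 against 1.05, 1.24 and 1.19 TPM).

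T cell transcripts separated the classes as widely as those of B cells. The T cell receptor list had 24 of 24 genes kept and entirely higher, 15 of them with a poor mean under 1 TPM, and a median difference of 4.5. Cd3g was at 0.45, 1.38 and 1.22 TPM against 101, 116 and 145 TPM, and the receptor constant gene Trbc2 at 0.52, 2.25 and 2.58 TPM against 152, 195 and 197 TPM. Both coreceptors were present: Cd4 had 1.17, 0.87 and 0.58 TPM against 28.5, 44.1 and 49.8 TPM, and Cd8a 0.67, 0.35 and 0.31 TPM against 46.9, 70.8 and 60.5 TPM. Within the rich libraries the TPM of Cd4 was below that of Cd8a each time, with ratios of 0.61, 0.62 and 0.82; CD4 is also made by some myeloid cells.

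Genes of naive and recirculating lymphocytes were high together. All 14 of the list were kept and lay entirely higher, 12 of them by at least 2-fold, with a median of 3.07. The poor mean was under 1 TPM for 5 of the 14. Ccr7, the receptor of CCL19 and CCL21, was at 0.24, 1.05 and 0.85 TPM against 45.3, 67.0 and 65.9 TPM. Tcf7, a factor of naive and memory T cells, was at 0.63, 0.70 and 0.70 TPM against 71.9, 96.6 and 108 TPM. Klf2 and S1pr1, which steer lymphocyte exit and which endothelium also expresses, differed less, by 0.98 and 0.76.

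Regulatory T cell genes were lower in level than those of the receptor complex. Foxp3, their defining factor, had 0.09, 0.17 and 0 TPM in the poor libraries and 4.76, 5.96 and 5.36 TPM in the rich, which was 0.17, 0.14 and 0.11 of the Cd4 level. Of 9 kept members, 5 of them with a poor mean under 1 TPM, 8 lay entirely higher, and Capg, which macrophages express, overlapped. Of 16 NK cell and cytotoxic genes 13 were kept, 6 of them with a poor mean under 1 TPM. Entirely higher were 11, and 9 of these at least 2-fold, with a median of 1.47. Nkg7, a granule protein of NK and cytotoxic T cells, was at 1.38, 3.56 and 3.63 TPM against 34.7, 51.7 and 43.7 TPM. Ccl5, a chemokine of effector and memory CD8 T cells and NK cells, had 9.84, 17.6 and 21.3 TPM against 413, 416 and 530 TPM. The granzymes named here were low: Gzma overlapped (2.95, 5.27 and 5.10 against 4.92, 6 and 8.50 TPM), and Gzmb was at 0.25, 0.66 and 1.18 TPM against 1.67, 1.47 and 2.12 TPM.

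The organisers of lymphoid tissue were higher as well, and not only lymphocyte genes. In the list of lymphoid stroma and follicular dendritic cells, 19 of 24 genes were kept, 15 lay entirely higher and the median was 1.66. The poor mean was under 1 TPM for 5 of the 19. Cxcl13, the follicular chemokine, was at 15.2, 4.70 and 14.8 TPM against 65.1, 115 and 132 TPM, so it was present in the poor libraries to a degree that Ccl21a was not. Clu, which follicular dendritic cells express strongly, was at 43.9, 48.9 and 61.3 TPM against 272, 370 and 338 TPM. Vcam1, an adhesion molecule of reticular cells, was at 8.13, 18.5 and 12.2 TPM against 37.7, 52.2 and 59.0 TPM. Grem1, a BMP antagonist of lymph node reticular cells, was listed at 0 in the 3 poor libraries and at 3.29, 6.57 and 5.70 TPM in the rich. Tnfsf11 (RANKL) had at most 0.15 TPM against 2.80, 4.20 and 4.31 TPM, and Il7, the survival cytokine of naive T cells, 1.99, 2.36 and 1.8 TPM against 4.44, 8.43 and 7.03 TPM. Pdpn, the podoplanin of reticular and lymphatic cells, overlapped, with 6.04, 11.1 and 8.38 TPM against 6.21, 7.55 and 4.86 TPM.

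High endothelial venule genes were divided. Glycam1, a secreted mucin of these venules, was listed at 0 in the 3 poor libraries and at 132, 120 and 195 TPM in the rich, the second widest separation among protein-coding genes. The enzymes that build the sugars of such glycoproteins were low but separate: Fut7 had 0.07, 0.67 and 0.17 TPM against 4.43, 5.62 and 4.35 TPM, and Gcnt1 1.44, 1.95 and 1.24 TPM against 6.73, 10.7 and 9.51 TPM. Madcam1, the mucosal addressin, reached 1.55, 2.09 and 2.01 TPM from at most 0.44 TPM. In all, 7 of 10 kept genes lay entirely higher with a median of 0.97. Selp and Ackr1, which other vessels share, were among those that overlapped. Enpp2, the member of highest level, lay entirely higher by 0.35, at 163, 185 and 156 TPM against 225, 214 and 205 TPM. Of the 10, 5 had a poor mean under 1 TPM, so they passed the filter through the rich libraries and had to be higher. Ackr1 overlaps Cadm3 in the annotation, whose level reached 13.2 TPM, so its value of 5.69 to 10.8 TPM is uncertain.

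The ligands and receptors that build lymphoid tissue were paired in the following way. Ltb, which encodes lymphotoxin beta and holds an NF-kB consensus upstream, was at 0.86, 2.23 and 1.34 TPM against 108, 144 and 165 TPM. Lta was at 0, 0.16 and 0.05 TPM against 5.54, 11.03 and 11.67 TPM. Their receptor on stroma, Ltbr, was instead slightly lower in the rich libraries, at 33.4, 42.7 and 37.8 TPM against 30.7, 27.7 and 21.0 TPM (a difference of -0.51, or 0.04 under adipocyte identity scaling). Downstream of it in the noncanonical NF-kB pathway, Relb had 7.11, 10.4 and 9.02 TPM against 26.2, 32.2 and 28.6 TPM, and Nfkb2 7.83, 10.1 and 7.64 TPM against 24.99, 32.22 and 32.92 TPM. Of 17 genes of lymphotoxin, CD40 and BAFF signalling, 5 of them with a poor mean under 1 TPM, 15 lay entirely higher and the median was 1.74. Tnfrsf13b, the TACI receptor of B cells, was at 1.58, 2.85 and 1.94 TPM against 30.7, 52.1 and 60.9 TPM. Among 21 kept chemokine genes and receptors, 6 of them with a poor mean under 1 TPM, 16 lay entirely higher. Ackr3, a scavenging receptor of CXCL12, was the 1 entirely lower member, with 14.5, 16.7 and 13.9 TPM against 11.1, 8.49 and 6.79 TPM.

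Markers of sinus macrophages and dendritic cells were divided. Of 12 kept sinus macrophage genes 6 lay entirely higher and 2 entirely lower, with a median of 1.06. Over all kept genes 30.5% lay entirely higher and 13.7% entirely lower, so the count of lower members did not set this list apart. Lyz2, the most abundant of the 12, overlapped, with 291, 879 and 477 TPM against 795, 1177 and 1199 TPM. Marco, a scavenger receptor of medullary and marginal macrophages, was at 1.36, 2.05 and 1.30 TPM against 63.2, 62.1 and 94.9 TPM, and Timd4 at 1.52, 1.29 and 1.44 TPM against 33.6, 45.7 and 53.9 TPM. Cd209b (SIGN-R1) was at 6.38, 6.5 and 5.69 TPM against 77.0, 98.6 and 134 TPM. Its paralogs Cd209f and Cd209g went the other way, with 33.8, 27.0 and 28.6 TPM against 22.3, 20.4 and 14.3 TPM for Cd209f and a difference of -0.67 for Cd209g, a direction both kept under each scaling tried. Among 16 dendritic cell genes 13 lay entirely higher, with a median of 2.05, and 5 of the 16 had a poor mean under 1 TPM. Ccl22, a chemokine of mature dendritic cells, was at 0.57, 2.05 and 1.17 TPM against 59.97, 46.46 and 56.2 TPM. Siglech, a marker of plasmacytoid cells, was at 0.88, 1.87 and 1.08 TPM against 11.2, 21.4 and 21.1 TPM. Clec10a, a lectin of tissue macrophages and dendritic cells, was entirely lower by 0.52 and turned to 0.05 under adipocyte identity scaling.

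Endothelium of lymphatics and sinuses, with 9 of 15 listed genes kept, had a median of 0.23 that turned to -0.04 under quantile normalization. Lyve1, the hyaluronan receptor of lymphatic vessels, was at 8.02, 8.14 and 5.70 TPM against 8.48, 12.1 and 11.5 TPM. The scavenger receptors Stab1 and Stab2 went in opposite directions. Stab2, typical of sinusoids, was at 0.64, 1.08 and 1.85 TPM against 3.33, 4.64 and 5.45 TPM, and Stab1, which tissue macrophages also express, at 36.3, 40.7 and 32.1 TPM against 18.7, 17.7 and 16.0 TPM, a difference of -1.01 that kept its sign under each scaling tried. Stab1 overlaps Nt5dc2 on the opposite strand, which reached 6.13 TPM.

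MHC class II genes were present in both classes and higher in the rich. Cd74, the invariant chain, was at 334, 892 and 637 TPM against 1555, 2408 and 2558 TPM, and H2-Aa at 265, 713 and 470 TPM against 1124, 1733 and 1817 TPM. H2-Ob, which B cells express, separated more widely, at 1.45, 1.81 and 2.21 TPM against 90.0, 234 and 202 TPM. In 10 of 12 genes the classes did not overlap, and 2 of the 12 had a poor mean under 1 TPM. H2-DMb1 and Ctss, which macrophages also express, overlapped.

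**Figure D3:**
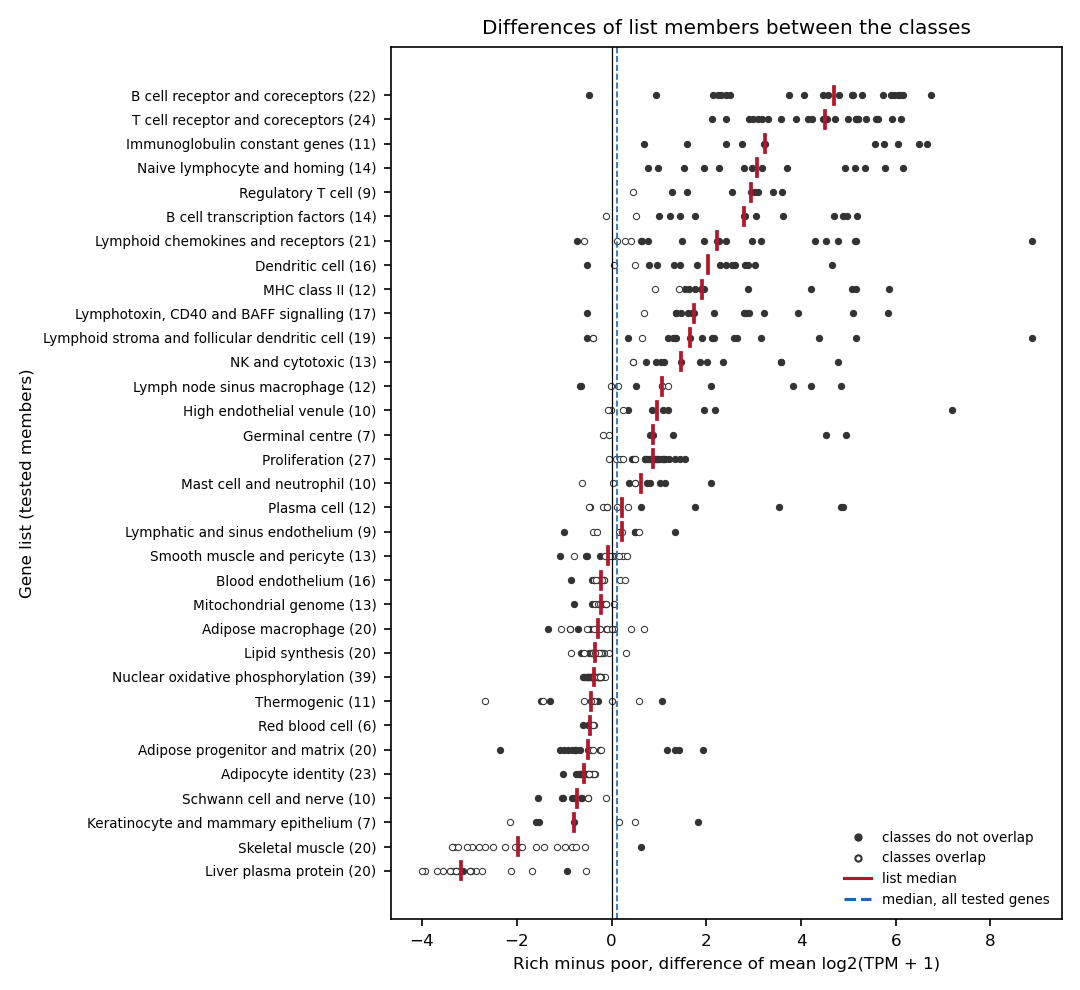
Difference of the class means, rich minus poor on the log2(TPM + 1) scale (horizontal axis), for each kept member of the lists with at least 5 kept genes (vertical axis, number of genes in parentheses), filled where the classes do not overlap, with the list median in red and the median of all kept genes, 0.11, as a dashed line. Lymphocyte lists lie to the right, with medians of up to 4.69, and adipocyte, mitochondrial, nerve, muscle and liver lists to the left of 0.

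Proliferation genes were modestly higher. Of 27 genes 22 lay entirely higher and 8 of them at least 2-fold, with a median of 0.87. Mki67, the Ki-67 antigen, was at 2.51, 2.29 and 1.75 TPM against 5.43, 5.41 and 7.06 TPM. The replication factor Pcna was at 50.5, 69.6 and 55.9 TPM against 78.8, 85.3 and 83.3 TPM. Stmn1 and Tyms overlapped.

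Genes of the cytosolic ribosome took up more of the rich libraries than any lymphocyte list. Their share of TPM was 5.36%, 6.5% and 6.18% in the poor libraries and 10.6%, 11.7% and 13.6% in the rich. Among 79 kept genes, paralogs included, 74 lay entirely higher with a median difference of 0.93, which stayed between 0.77 and 1.51 under the other scalings. Rps27 was at a mean of 7483 ± 1599 TPM in the rich and 2260 ± 292 TPM in the poor libraries (SD, n = 3 each). The 3 entirely lower genes were paralogs of the standard subunits: Rpl39l was at 15.5, 16.9 and 14.5 TPM against 2.25, 6.61 and 4.84 TPM, Rps27l at 363, 448 and 392 TPM against 342, 294 and 240 TPM, and Rps4l at 33.8, 36.2 and 35.1 TPM against 28.9, 18.3 and 16.4 TPM. For Rps27l the difference of -0.47 became 0.11 under adipocyte identity scaling. Ribosomal protein genes have many processed pseudogenes with which reads can be shared. All genes counted as higher together held 4.14%, 5.27% and 4.71% of TPM in the poor libraries and 11.3%, 14.4% and 16.0% in the rich.

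Genes of fat itself were lower in the rich libraries, by far smaller amounts. In bulk libraries fewer cells of a type and less RNA per cell cannot be told apart, and because TPM is a share of a fixed total, more of one class of transcript leaves less for the others. The adipocyte identity list was lower in mean for 23 of 23 genes and entirely lower for 18, with a median of -0.57, and held 6.30%, 6.64% and 6.32% of TPM against 5.14%, 4.05% and 3.79%. Adipoq, the hormone adiponectin, was at 3473, 4211 and 3926 TPM against 2891, 2393 and 2151 TPM. Fabp4, the fatty acid carrier of adipocytes, was at 34655, 35107 and 34962 TPM against 28319, 21102 and 21544 TPM. In both, HFD replicate 3 was the rich library closest to the poor ones. Lep, the hormone leptin, overlapped, with 991, 1662 and 1016 TPM against 1182, 710 and 733 TPM, and so did Lpl, which encodes lipoprotein lipase.

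Lipid synthesis was less uniform. Of 20 genes 2 lay entirely lower, Scd1 and Dgat1, and the median was -0.35. Over all kept genes 13.7% lay entirely lower, so this count did not set the list apart. Scd1, the stearoyl-CoA desaturase, was at 6251, 7399 and 6855 TPM against 4469, 5327 and 3567 TPM, whereas Fasn, the fatty acid synthase, overlapped (187, 154 and 131 against 150, 99.6 and 104 TPM). Ucp1, the uncoupling protein of thermogenic fat, was low in each library, from 0.05 to 1.73 TPM, and was not kept.

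Nuclear genes of oxidative phosphorylation were lower in mean in 39 of 39 kept genes and entirely lower in 31, although none differed 2-fold and the median was -0.37. Cox7b, a subunit of complex IV, was at 211, 191 and 229 TPM against 168, 133 and 137 TPM. Atp5f1b, the catalytic beta subunit of ATP synthase, was at 1092, 1014 and 1145 TPM against 966, 741 and 770 TPM. The 13 genes of the mitochondrial genome overlapped in 11 cases, with a median of -0.23 that was nearly 0 after quantile normalization. For these lists the direction depended on the scale: with each library divided by its adipocyte identity genes, the medians of oxidative phosphorylation (0.20), lipid synthesis (0.19) and the mitochondrial genome (0.35) turned positive, and adipocyte identity was at 0 by construction.

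Progenitor and matrix genes were divided, and some were among the lower genes with the widest gaps. Pi16, a marker of the adventitial fibroblasts of fat, was at 67.2, 46.9 and 74.2 TPM against 13.6, 14.9 and 6.86 TPM, a difference of -2.36. Igfbp6, which binds insulin-like growth factors, was at 92.9, 86.4 and 104 TPM against 32.0, 28.6 and 16.2 TPM. Col1a1, a chain of type I collagen, was at 188, 205 and 144 TPM against 89.3, 89.7 and 70.1 TPM. Pi16 and Igfbp6 kept their direction under each scaling tried. In the list of 20, 10 genes lay entirely lower and 4 entirely higher, beside 13.7% and 30.5% of all kept genes. The list median was -0.49 and turned to 0.08 under adipocyte identity scaling. The 4 higher ones, Dpp4, Cd55, Thy1 and Icam1, encode surface molecules that lymphocytes or lymphoid stroma also carry. Which cells their higher values came from was not tested. Thy1, a classic T cell antigen in mice, was at 36.8, 39.0 and 26.5 TPM against 116, 135 and 147 TPM, and Cd55, a complement regulator, at 41.0, 39.4 and 42.7 TPM against 85.1, 125 and 131 TPM.

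Macrophage genes of fat did not follow the sinus macrophage genes that were higher, such as Marco and Cd209b. Of 20 listed genes 0 lay entirely higher and 4 entirely lower (Mrc1, Lgals3, Spp1 and F13a1), and the median was -0.28, or 0.28 under adipocyte identity scaling. The shares over all kept genes were 30.5% entirely higher and 13.7% entirely lower. Adgre1, which encodes F4/80, overlapped, with 12.7, 35.2 and 14.8 TPM against 8.26, 17.01 and 14.6 TPM. Lgals3, galectin-3, was at 200, 428 and 228 TPM against 132, 143 and 168 TPM. Several of these genes were highest in 1 poor library, HFD replicate 2: Trem2, a receptor of lipid-associated macrophages, had 45.7 TPM there and 3.82 to 12.0 TPM in the other libraries.

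Some epithelial, nerve and contractile genes were lower. Krtdap, a protein of keratinocytes, had the widest separation of the named lower genes, with 13.7, 18.7 and 12.3 TPM against 2.44, 1.10 and 0.60 TPM. Krt8 and Krt18, the simple epithelial keratins, were at 1.73 to 3.49 TPM in the poor libraries and at or below 0.67 TPM in the rich. Both passed the filter on level through the poor libraries. Other epithelial genes went the other way: Sfn, an epithelial 14-3-3 protein, was at 3.21, 3.79 and 2.97 TPM against 12.1, 15.6 and 15.7 TPM. Of the 7 kept keratinocyte and mammary genes 3 lay entirely lower and 1, Sfn, entirely higher, with a median of -0.79. For 4 of the 7 the rich mean was under 1 TPM, so these passed the filter through the poor libraries and had to be lower. At a mean of at least 5 TPM Sfn alone was left, so the list's value there, 1.83, was the difference of that gene. In the nerve list 8 of 10 genes lay entirely lower, with a median of -0.72. Acta2, smooth muscle actin, was at 363, 331 and 413 TPM against 176, 186 and 153 TPM, while Myh11 and Rgs5 of the same list overlapped.

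Transcripts of skeletal muscle and liver varied strongly between libraries, within the classes as well as between them. Summed TPM of the 20 kept muscle genes was 322, 1015 and 19759 in the poor libraries and 165, 2304 and 99.5 in the rich, so HEP replicate 2 stood far above the others. Summed TPM of the 20 liver genes was 5099, 2351 and 7578 against 1777, 1574 and 1196, highest in HEP replicate 2 and HFD replicate 1. The sum was lower in each rich library than in each poor one, but Trf, which was high in each library, made up much of it. Trf was at 1803, 2003 and 2436 TPM against 1275, 1174 and 843 TPM. By the list's mean log2(TPM + 1), the poor HFD replicate 2 (2.91) lay below the rich HFD replicate 3 (3.46) and HEP replicate 3 (3.32). Alb, serum albumin, was at 664, 27.5 and 1024 TPM against 48.8, 9.20 and 39.3 TPM, and the poor library HFD replicate 2 lay within the range of the rich. Of the muscle genes 19 of 20 and of the liver genes 18 of 20 overlapped. The part of these transcripts in the other differences was not tested beyond leaving libraries out. Without HFD replicate 1 and HEP replicate 2, which leaves HFD replicate 2 as the single poor library, the count of higher genes was 1942 and of lower genes 336. The medians were then -0.59 for adipocyte identity, -0.35 for oxidative phosphorylation, -0.83 for progenitor and matrix genes and -0.07 for liver genes, and that of the mitochondrial genome turned to 0.05. Counts with 1 poor library are not comparable with those from 3.

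Each diet held libraries of both classes, and the differences within each are given as a description. They come from the same libraries that Cd79b classed, so they are no check of the split. In HFD, replicate 3 exceeded the mean of replicates 1 and 2 by a median of 3.92 in the B cell receptor list and 4.09 in the T cell receptor list. Within HEP, replicates 1 and 3 exceeded replicate 2 by 5.12 and 4.74. High endothelial venule genes differed by 0.77 and 0.92, and lymphoid stroma by 1.45 and 2.03. On the side of fat, adipocyte identity differed by -0.39 in HFD and -0.67 in HEP, and oxidative phosphorylation by -0.12 and -0.53. The liver list differed by -1.52 in HFD and -5.06 in HEP, where the only poor library was the one richest in liver and muscle transcripts. Of the 1763 higher genes 1175 (66.6%) were at least 2-fold higher in each diet taken alone, and of the 136 lower genes 56 (41.2%) were at least 2-fold lower in each. These genes were counted for non-overlap in the same libraries, which fixed their direction within each diet. The shares are therefore no check of the split, and the share over all kept genes was not counted. Whether the diets differed in the size of the split was not tested.

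**Figure D4:**
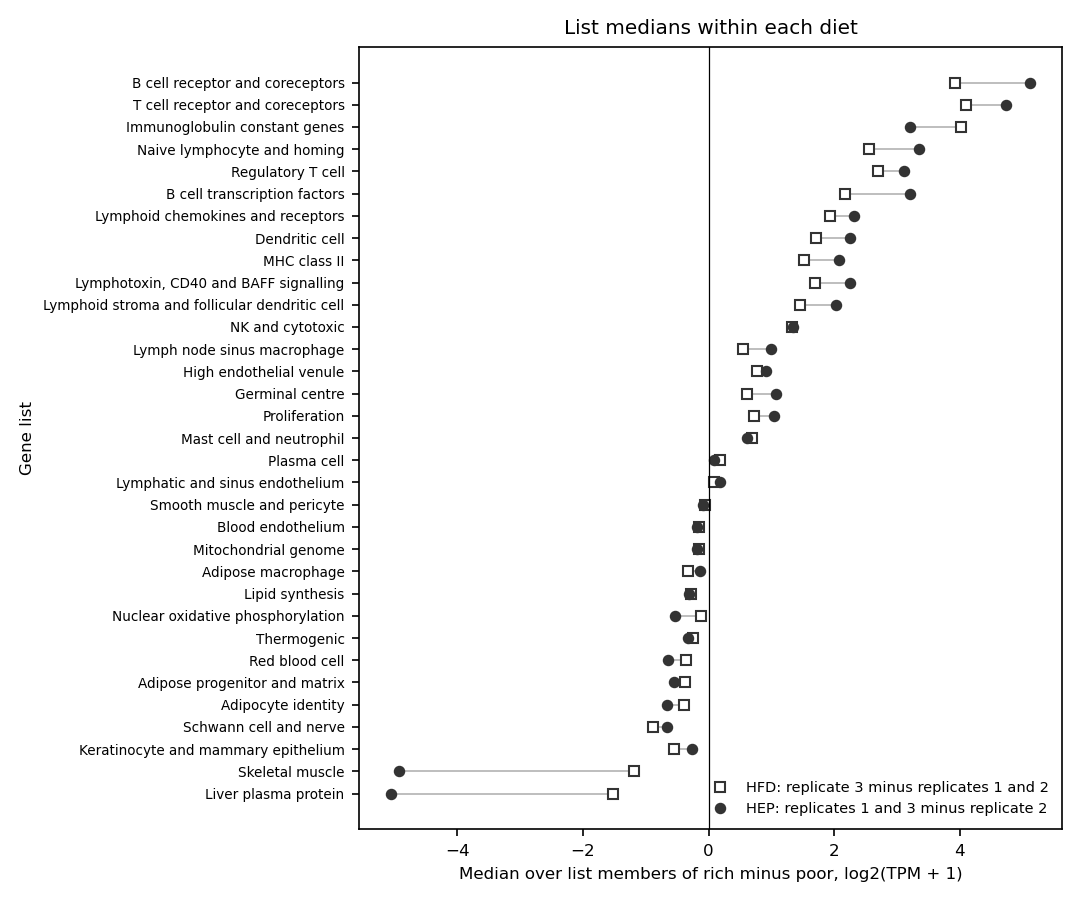
Median over list members of the difference between rich and poor libraries on the log2(TPM + 1) scale (horizontal axis) for each gene list (vertical axis), open squares within HFD (1 rich, 2 poor libraries) and filled circles within HEP (2 rich, 1 poor). The sign is the same in both diets for each list shown, and muscle and liver differ most between the diets.

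The rich libraries were not alike. All 21 entirely higher B cell receptor genes were above their HFD replicate 3 level in both HEP replicate 1 and HEP replicate 3, by medians of 1.03 and 1.09. The 24 T cell receptor genes were also above it in both, by 0.45 and 0.50. For lymphoid stroma the medians were 0.44 and 0.40, and for high endothelial venules 0.28 and 0.24, with 4 of 7 genes above in both. HEP replicates 1 and 3 were close to each other, with medians of HEP replicate 3 minus HEP replicate 1 of 0.09 for B cell receptor, 0.04 for T cell receptor and -0.04 for stromal genes.

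The balance of B to T cell transcripts varied accordingly. Cd79a was 1.58 times the TPM of Cd3g in HFD replicate 3 and 2.59 and 2.33 times in HEP replicates 1 and 3. Ighd was 0.32 of Ighm in HFD replicate 3 and 0.56 and 0.52 in the others. Ccl19 was 1.33 times Cd79b in HFD replicate 3 and 0.67 and 0.55 times in HEP replicates 1 and 3, and 3.75 times Cd3e against 2.14 and 2.03 times, while Ccl21a was 9.83, 8.85 and 8.31 times Cd3e. These ratios depend on the pair of genes chosen. With 1 HFD library among the rich, library and diet cannot be told apart here. No cell count or histology was used, and which structure the lymphoid transcripts came from was not tested.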

How the data were processed

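RNA of inguinal white fat was sequenced in 6 libraries, 3 HFD and 3 HEP. Libraries were TruSeq preparations from 1 µg of TRIzol-extracted RNA with 300 bp inserts and 15 PCR cycles, per the labels' protocols. The authors deposited a table of TPM per gene and library. Named in the submitters' processing notes are HISAT2, StringTie, RSEM, fastp and DESeq2, with no version or role. Build and annotation were not given in the sources used here. Whether counting used strand was not stated, so overlapping genes share reads: of 185 named genes 66 overlap another gene in GENCODE M21, where 97% of the kept genes' IDs were found.

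Libraries were split by Cd79b (at least 100 or below 10 TPM). Genes averaging 1 TPM or more were kept, transformed to log2(TPM + 1), and described by the difference of class means and the gap between the nearest values. No test was run. The counting rule was checked on simulated libraries with large known changes. Genes with low values in the poor libraries were left out of that simulation, so it does not cover them. The members, the 34 gene lists (560 genes; 494 kept, 55 under the filter, 11 not found under these names) and the rule for named genes were chosen with earlier results of these data known. The rule named the 20 higher and 15 lower protein-coding genes with the widest gap (predicted genes and receptor segments left out), up to 4 members of each list by level and up to 2 against its direction, and fixed markers. Some genes the rule named are not reported here, and other genes were named after their values were seen. Upstream sequences of 250 bases came from RefSeq (GRCm38.p6), which held entries for 966 of the 1227 higher protein-coding genes. Alternatives varied the pseudocount, the filter, the scaling, the fold and the libraries. Python 3.11.15, pandas 2.3.3, numpy 2.4.6 and matplotlib 3.10.9 were used.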

Additional observations from a re-analysis of the deposited data

How the results depend on the processing

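With pseudocounts of 0.1 and 0.01 in place of 1, the lower genes were 231 and 247, and the medians were 6.4 and 6.6 for the B cell receptor list, 5.83 and 6.18 for T cell receptor, 1.98 and 1.99 for lymphoid stroma and 1.61 and 1.74 for high endothelial venules. With any gene above 0 the stroma median was 1.51. At a mean of at least 5 TPM there were 1108 higher and 81 lower genes and a venule median of 0.30, and mesothelium had no value; nor did the constant genes with immunoglobulins left out. Folds of 4 and 1 gave 724 and 4704 higher and 16 and 2109 lower genes.

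Scaling moved the median of all kept genes from 0.11 to -0.04 (median of ratios), -0.12 (quantile normalization) and 0.61 (adipocyte identity), and the lower genes to 216, 401 and 29. Higher genes made up 92.8% of those counted, and 77.3% under quantile normalization, 82.6% within HFD alone and 78.2% within HEP alone. Median-of-ratios scaling gave -0.54 for oxidative phosphorylation and -0.66 for progenitor and matrix genes, and quantile normalization 1.36 for stroma and 0.65 for venules. Adipocyte identity scaling gave 3996 higher genes, 4.96 for T cell receptor, 2.14 for stroma, 1.29 for venules, 0.28 for adipose macrophages and 0.0823 for progenitor and matrix genes, and turned oxidative phosphorylation to 0.20 and, by construction, adipocyte identity to 0.00014.

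Leaving out each library in turn gave 1479 to 2214 higher and 129 to 353 lower genes, and the lower count exceeded 1.5 times the main one when HFD replicate 2 (353), HEP replicate 1 (291), HFD replicate 1 (235) or HFD replicate 3 (223) was left out. Medians ranged from 4.45 to 5.06 (B cell receptor), 4.37 to 4.70 (T cell receptor), 1.49 to 1.98 (stroma), 0.83 to 0.98 (venules), -0.72 to -0.41 (adipocyte identity), -0.49 to -0.29 (oxidative phosphorylation), -0.63 to -0.36 (progenitor and matrix) and -0.45 to -0.01 (adipose macrophages). With genes kept within each diet alone, HFD gave 1166 higher and 246 lower genes, 3.92, 4.09, 1.45 and 0.67 for B cell receptor, T cell receptor, stroma and venules, -0.39 for adipocyte identity and -0.12 for oxidative phosphorylation. HEP gave 2977 and 829 genes, 5.12, 4.74 and 2.03 for the first 3 of these lists and -0.53 for oxidative phosphorylation. Leaving out both libraries highest in liver transcripts was chosen after seeing the data and leaves 1 poor library: it gave 336 lower genes, 1.35 for stroma, -0.76 for adipose macrophages and -0.83 for progenitors. The cause of these shifts was not tested, and at 1 library a class within a diet non-overlap is met more easily. No paired analysis was possible because these values come from no test. TPM keeps no depth, so what depth limits is unknown.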

Other observations

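Gene families were also described, chosen after their values were seen, and some hold members of the lists. Over all kept genes 30.5% lay entirely higher, and 11.4% were higher by the 2-fold rule. The GIMAP GTPases, which support lymphocyte survival, lay entirely higher in the rich libraries in 8 of 8 kept genes, with a median difference of 2.62. Gimap3 was at 2.74, 2.59 and 2.31 TPM in the poor libraries and at 78.9, 160 and 122 TPM in the rich, and Gimap6, the member highest in the poor libraries, at 47.9, 64.0 and 54.9 TPM against 156, 242 and 267 TPM. Of 10 MS4A genes 5 lay at least 2-fold higher (Ms4a1, Ms4a4b, Ms4a4c, Ms4a6b and Ms4a6c), whereas Ms4a7, a macrophage member, overlapped with 4.76, 10.9 and 6.66 TPM against 7.80, 8.41 and 8.41 TPM. Apol7c, an apolipoprotein L gene, was at 0.13, 0.53 and 0.37 TPM against 57.4, 73.4 and 72.8 TPM, among the widest separations of all genes, and Apol7e followed it with at most 0.30 TPM against 14.7, 25.02 and 21.2 TPM. Their relative Apol6 overlapped, at 401, 347 and 251 TPM against 299, 353 and 186 TPM.

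MHC class I genes were uneven: 9 of 14 lay entirely higher, beside 30.5% of all kept genes. H2-D1 overlapped between 1108 and 1337 TPM, and the nonclassical H2-Q7 was at 48.8, 40.8 and 62.0 TPM against 127, 266 and 213 TPM. These genes are similar in sequence, so their values are uncertain. Collagens lay entirely lower in 16 of 22 genes, beside 13.7% of all kept genes. Their median was -0.68. It kept its sign under the scalings tried but was only -0.11 under adipocyte identity scaling. Col6a4 went the other way, listed at 0 in the poor libraries and at 4.10, 3.71 and 3.41 TPM in the rich. The metal-binding metallothioneins Mt1, Mt2 and Mt3 were lower in 3 of 3 cases, Mt2 with 109, 246 and 116 TPM against 63.3, 67.1 and 38.6 TPM. Mitochondrial ribosomal proteins did not follow those of the cytosol: 26 of 78 lay entirely lower and 2 entirely higher. The shares over all kept genes were 13.7% and 30.5%. The family median was -0.19 and became 0.36 under adipocyte identity scaling.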
